A study of Mus musculus with 3 samples.

Results

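Notch receptors, the factors that carry and read the Notch signal, and the Runx transcription factors were examined as 7 genes in phagocytes of the mouse Peyer's patch: the receptors Notch1 and Notch2, the DNA-binding mediator Rbpj, the Notch target Hes1, the adhesion molecule Esam, and Runx1 and Runx3. They were chosen by name, as the rows of these symbols among the 27998 genes of the count matrices, and all 7 were found. Levels are given by library and in 3 cell classes: resting type 2 conventional dendritic cells (cDC2-like), mature dendritic cells (mature DC-like) and lysozyme-high phagocytes.

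A Notch receptor that meets a ligand of the Delta or Jagged family on a neighbouring cell is cut by ADAM proteases and then by gamma-secretase, and its freed intracellular part joins Rbpj on DNA to switch on targets such as Hes1. In the mouse, Notch2 and Rbpj in dendritic cells are known to be needed for the Esam-bearing cDC2 of the spleen and for the CD103+ CD11b+ cDC2 of the intestine. Runx proteins bind DNA together with the partner Cbfb, Runx1 being known above all for blood formation and Runx3 for T cell lineages and for keeping dendritic cell maturation in check.

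The CpG library came from female C57BL/6Rj mice given an intraperitoneal injection of CpG (125 µg), DNA that TLR9 senses, and the R848 library from mice given R848 (10 µg), a small molecule that TLR7 senses. Both were collected 9 h later, and the Control library came from mice that had no treatment, so no injection either. Each library pooled 12 mice of that strain and sex, with 85 Peyer's patches for CpG, 90 for R848 and 88 for Control, and there was 1 library per group. The cells were freed with collagenase, enriched for CD11c and sorted as live cDC1, cDC2, lysozyme-expressing dendritic cells (LysoDC) and macrophages. Transcripts were counted by unique molecular identifiers (UMIs) at their 3' ends, so isoforms that differ at the start of a gene were counted together.

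The libraries held between 43537067 and 46556726 UMIs over 5049 to 5344 cell barcodes. Between 33 and 42 barcodes were shared by any pair of libraries. Resting cDC2-like cells numbered 411 in CpG, 503 in R848 and 1769 in Control, mature DC-like cells 2842, 2165 and 515, and lysozyme-high phagocytes 1183, 1826 and 1854, in the same order. Resting cDC1-like clusters were found in Control (412 cells) and in neither treated library at 50 cells or more. Mature DC-like cells were not split into cDC1 and cDC2 types. Xcr1, a cDC1 marker, stood in them at 2.40 CPM in CpG, 29.6 CPM in R848 and 16.7 CPM in Control. In Control resting cDC1-like cells it stood at 662.5 CPM. The 7 genes and the pathway genes below were kept out of the clustering. Each class had most of its own markers at 5 CPM or more: 11 of 12 in CpG and R848 and 12 of 12 in Control for cDC2, 16 of 16 in every library for mature DC, and 12 of 13 in every library for lysozyme-high phagocytes. The same lists named the clusters, so these counts are no independent check. Within the cDC2 class, 1 CpG cluster of 106 cells and 1 R848 cluster of 171 cells were weakly named. Their cDC2 markers averaged log2 ratios of -0.33 and -0.42 to the mean of the libraries. In each, 7 of the 12 markers were detected and none was among the 10 leading genes. These clusters had the most Notch2 of the class in their library, at 54.4 and 62.3 CPM, and the least Runx1, at 1.18 and 1.71 CPM. Resting cDC2-like cells also had 14, 16 and 12 of the 16 mature DC markers at 5 CPM in CpG, R848 and Control. Those markers summed there to 1131, 2387 and 1021 CPM, against 25913, 25045 and 13132 CPM in mature DC-like cells. Some clusters held in the lysozyme-high class by their Lyz1 level had none of its markers and more of another list among their 10 leading genes: 552 CpG cells with Itgam and Il1r2 of the cDC2 list, 366 R848 cells with S100a8 and S100a9 of the neutrophil list and 271 R848 cells with Kdr of the endothelial list. Without them the class held 631 cells in CpG and 1189 in R848, and the log2 ratios over Control were -1.50 for CpG and -1.60 for R848 for Notch2, against -1.47 and -1.70 with them, 0.09 and 0.31 for Rbpj, against 0.21 and 0.41, and 0.13 and -0.04 for Runx3, against 0.18 and -0.28. Sort gates and the mixing of sorted cells can set the class sizes. Levels are in CPM, the UMIs of a gene scaled to the total UMIs of the summed cells. Bracketed ranges after levels and folds are 95% intervals for counting error alone. No spread between mice could be measured and no test was run.

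All 7 genes are protein-coding. In GENCODE M21 on GRCm38, the assembly called mm10, Notch2 (ENSMUSG00000027878) lies on chromosome 3 from 98013527 to 98150361 on the plus strand and Notch1 (ENSMUSG00000026923) on chromosome 2 from 26457903 to 26516663 on the minus strand. Rbpj (ENSMUSG00000039191) lies on chromosome 5 from 53466152 to 53657362, Hes1 (ENSMUSG00000022528) on chromosome 16 from 30064384 to 30067796 and Esam (ENSMUSG00000001946) on chromosome 9 from 37528078 to 37538319, all on the plus strand. Runx1 (ENSMUSG00000022952) lies on chromosome 16 from 92601466 to 92826149 on the minus strand, and Runx3 (ENSMUSG00000070691) on chromosome 4 from 135120652 to 135177990 on the plus strand. Reads of Notch2 cannot be told apart here from those of the same-strand gene models Gm42819 and Gm42820 inside it, nor reads of Notch1 from its microRNA gene Mir6996. Notch1, Rbpj, Runx1 and Runx3 also overlap 1 or 2 genes of the opposite strand, and no source used here says whether the counting used strand.

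Over whole libraries Notch2 was about 4 times lower with either agonist, Runx1 and Runx3 were lower, Esam was higher, and Rbpj moved little. Notch2 stood at 30.9 CPM (29.3 to 32.6) in CpG and 29.9 CPM (28.4 to 31.5) in R848, against 124 CPM (121 to 127) in Control. Runx3 stood at 214 CPM in CpG and 213 CPM in R848, against 350 CPM in Control. Runx1 stood at 20.8 and 25.0 CPM, against 36.7 CPM in Control, and Esam at 15.4 and 18.8 CPM, against 6.39 CPM in Control. Rbpj stood at 53.3, 45.3 and 49.3 CPM in CpG, R848 and Control. Notch1 held 96, 120 and 107 UMIs in all, and Hes1 18, 9 and 30. These sums mix classes whose shares differ between libraries: mature DC-like cells were 59.0% of kept cells in CpG and 44.2% in R848, against 10.1% in Control.

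Within classes, a gene was measured where its higher library had at least 20 CPM and 20 UMIs, and called where it differed at least 2-fold on the log2 scale with 5 CPM added and the interval of its fold left out 1. In resting cDC2-like cells 4 of the 7 genes were measured: with CpG over Control 2 were called lower and none higher, where 1.05% of 4875 measured genes were lower and 2.34% higher. With R848 over Control 1 was called lower, where 0.691% of 4917 measured genes were lower and 2.26% higher. In lysozyme-high phagocytes 4 were measured and 1 was called lower with each agonist, where 0.513% of genes were lower and 2.99% higher with CpG, and 1.66% lower and 4.63% higher with R848. In mature DC-like cells 4 were measured. With CpG 2 were called lower, where 6.94% of genes were lower and 9.74% higher, and with R848 2 were called lower and 1 higher, where 9.25% were lower and 8.21% higher. Notch2 was the gene called in all 6 comparisons. The other calls were Runx1 in resting cDC2-like cells with CpG, Runx3 in mature DC-like cells with both agonists, and Esam in mature DC-like cells with R848. Both agonist libraries were set against the same Control library, so their ratios are not independent of each other.

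**Figure D1:**
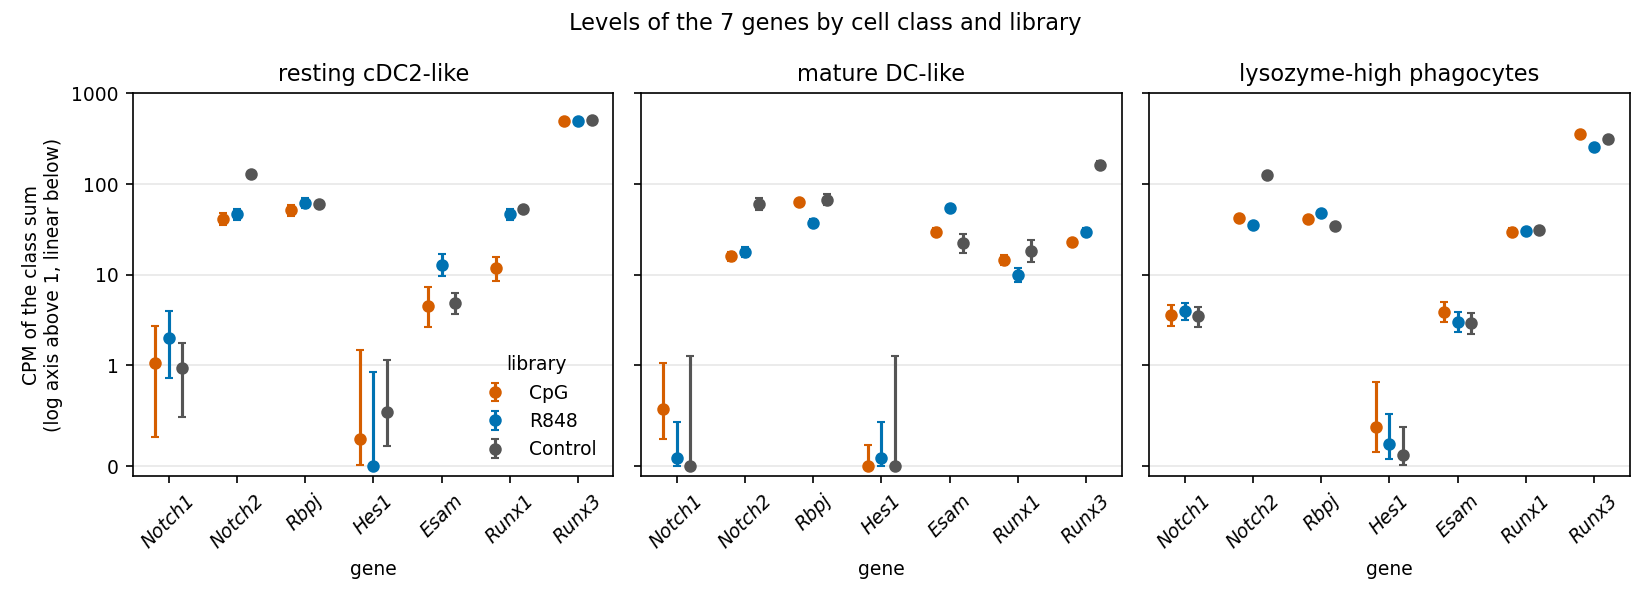
Level of each of the 7 genes in CPM of the class sum (y axis, log above 1 and linear below) in the 3 cell classes, with points for the CpG, R848 and Control libraries and bars for the 95% counting interval. Notch2 is lower in both agonist libraries in every panel (41.4 and 46.6 CPM against 131 CPM in Control in resting cDC2-like cells), and Runx3 is far lower in mature DC-like cells than in the other classes.

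Notch2 fell in every class. Among resting cDC2-like cells it stood at 41.4 CPM (35.1 to 48.5) in CpG and 46.6 CPM (40.1 to 53.8) in R848, against 131 CPM (124 to 138) in Control. The CpG level was 0.316 times the Control level (0.266 to 0.373) and the R848 level 0.356 times (0.304 to 0.415). In lysozyme-high phagocytes it stood at 41.9 CPM (38.7 to 45.2) in CpG and 35.0 CPM (32.6 to 37.5) in R848, against 125 CPM (120 to 130) in Control, folds of 0.335 and 0.28. Among mature DC-like cells it stood at 15.96 CPM (14.1 to 17.9) in CpG and 17.9 CPM (15.7 to 20.4) in R848, against 61.0 CPM (52.3 to 70.8) in Control, folds of 0.262 and 0.294. Lysozyme-high phagocytes over resting cDC2-like cells was 1.01 (0.848 to 1.22) in CpG, 0.751 (0.639 to 0.887) in R848 and 0.954 (0.894 to 1.02) in Control, and mature DC-like over resting cDC2-like cells was 0.386, 0.385 and 0.466. Between the agonists Notch2 differed little: R848 over CpG was 1.13 (0.904 to 1.40) in resting cDC2-like cells, 1.12 (0.939 to 1.34) in mature DC-like cells and 0.835 (0.752 to 0.928) in lysozyme-high phagocytes. Resting cDC1-like cells of Control stood at 145 CPM (131 to 159).

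The share of cells with a Notch2 UMI followed the levels. With each cell thinned to 3000 UMIs it was 10.0% of 410 resting cDC2-like cells (exact binomial interval 7.27 to 13.3) in CpG and 11.3% of 496 (8.64 to 14.4) in R848, against 32.4% of 1713 (30.2 to 34.7) in Control. Unthinned, it was 25.1%, 26.6% and 48.3%, at median depths of 8678, 7659 and 6042 UMIs. In lysozyme-high phagocytes the thinned share was 11.6% in CpG and 9.43% in R848, against 30.5% in Control, and unthinned 36.2%, 29.0% and 60.1%. Among mature DC-like cells it was 4.94% and 4.88%, against 16.1% in Control, and unthinned 8.76%, 9.01% and 26.8%. Cells under 3000 UMIs were left out, at most 209 in a class and library. No class here is known to lack Notch2, so the level that free RNA would give stands in its place: 0.807 CPM in CpG, 0.750 CPM in R848 and 5.72 CPM in Control.

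Notch2 also varied among the clusters of 1 class, and the widest spread was inside Control. Of the 4 Control clusters of resting cDC2-like cells, 3 stood at 188, 162 and 120 CPM, and 1 of 528 cells stood at 58.7 CPM. Of the 5 Control clusters of lysozyme-high phagocytes, 4 stood between 97.9 and 182 CPM, and 1 of 461 cells stood at 41.3 CPM. The treated clusters stood between 34.2 and 62.3 CPM in resting cDC2-like cells and between 19.6 and 43.0 CPM in lysozyme-high phagocytes. Against the low Control cluster alone, the fold in resting cDC2-like cells was 0.706 (0.572 to 0.869) for CpG and 0.794 (0.651 to 0.969) for R848, and in lysozyme-high phagocytes 1.01 (0.868 to 1.19) and 0.846 (0.727 to 0.988). Against every other Control cluster of these classes the folds lay between 0.193 and 0.428. Without the largest cluster of the class in each library, Notch2 in resting cDC2-like cells was no longer called, at log2 ratios of -0.73 for CpG and -0.58 for R848, against -1.55 and -1.40 with it. The CpG class was then the weakly named cluster of 106 cells alone.

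The low Control clusters had less of the beta-actin transcript Actb than the clusters beside them: 12821 CPM against 29125 to 36351 CPM in the other resting cDC2-like clusters, and 8710 CPM against 13462 to 29462 CPM in the other lysozyme-high clusters. Cells of like Actb level were set side by side, a comparison added after these values were seen. In every class and library Notch2 was higher in the tertile of cells with most Actb than in the tertile with least: 91.6 against 12.9 CPM in CpG resting cDC2-like cells, 103 against 16.3 CPM in R848 and 222 against 23.2 CPM in Control. In the same tertiles Malat1, a nuclear RNA, stood at 19662 against 21773 CPM in CpG, 21122 against 24079 CPM in R848 and 16985 against 18513 CPM in Control, and mitochondrial UMIs at 1.76% against 1.70%, 1.78% against 1.56% and 2.66% against 2.08%.

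**Figure D2:**
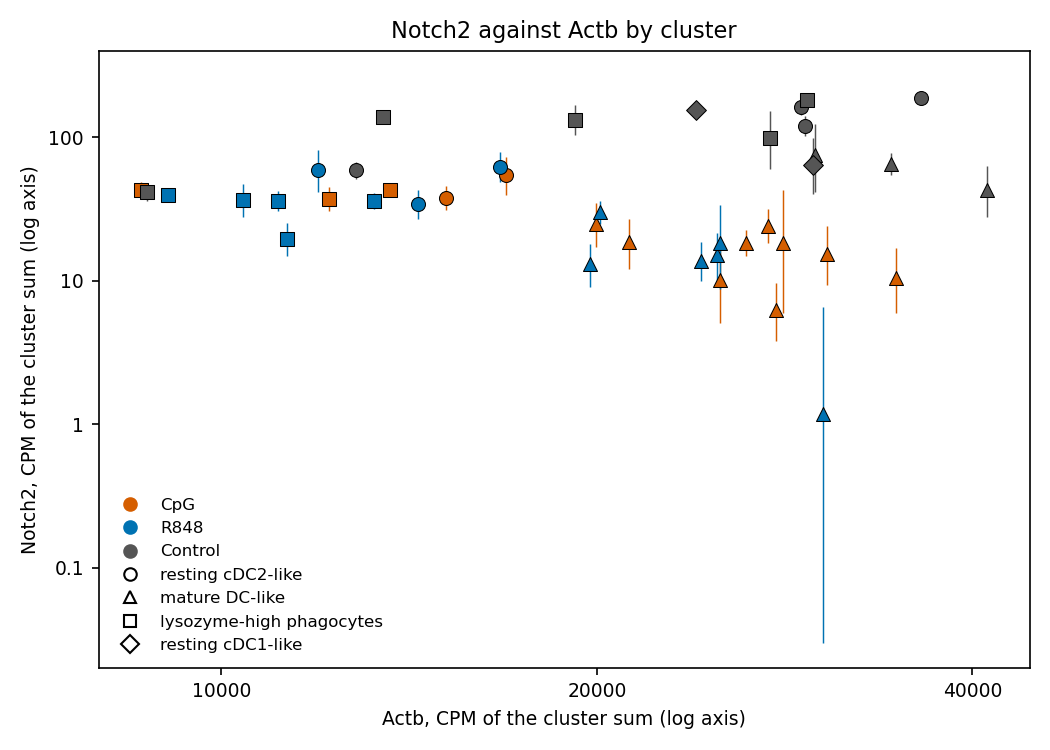
Notch2 against Actb, both in CPM of the cluster sum on log axes, with 1 point for each cluster of the 4 classes, colour for the library and bars for the 95% counting interval of Notch2. The low Control clusters of resting cDC2-like cells and lysozyme-high phagocytes (58.7 and 41.3 CPM) lie among the treated clusters at the low end of Actb. Mature DC-like clusters of the treated libraries hold 1.18 to 30.1 CPM of Notch2, at 19971 to 34701 CPM of Actb in CpG and 19742 to 30370 CPM in R848.

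Treated resting cDC2-like cells were mostly below 20000 CPM of Actb. Resting cDC2-like cells with 20000 to 40000 CPM of Actb made up 14.6% of the class in CpG and 12.9% in R848, against 31.4% in Control, and those with 40000 CPM or more 5.11% and 5.57%, against 30.6% in Control. In the mature DC-like class these ranges held 37.5% and 15.6% of the class in CpG and 24.4% and 12.7% in R848, against 22.7% and 44.1% in Control. At 20000 to 40000 CPM of Actb, Notch2 stood at 112 CPM (84.4 to 144) in 60 CpG cells and 119 CPM (90.3 to 153) in 65 R848 cells, against 198 CPM (183 to 214) in 556 Control cells, folds of 0.562 (0.421 to 0.737) and 0.598 (0.450 to 0.782). At 10000 to 20000 CPM the folds were 0.420 (0.290 to 0.601) and 0.515 (0.356 to 0.735). Below 10000 CPM they were 0.744 (0.392 to 1.33) and 1.18 (0.750 to 1.82), and at 40000 CPM or more 0.790 (0.549 to 1.10) and 0.912 (0.654 to 1.24), intervals that held 1. In lysozyme-high phagocytes the folds were below 1 in all 4 ranges, from 0.356 to 0.728 for CpG and from 0.306 to 0.745 for R848. In mature DC-like cells they were 0.255, 0.161 and 0.522 for CpG and 0.365, 0.255 and 0.568 for R848 in the 3 ranges from 10000 CPM up, and below 10000 CPM, where Control held 4 Notch2 UMIs, the intervals held 1. In all 4 ranges of resting cDC2-like cells and of lysozyme-high phagocytes the folds lay nearer to 1 than the class folds, the 1.18 in the R848 cells of lowest Actb lying above 1. Among mature DC-like cells the folds at 10000 to 40000 CPM for CpG and at 20000 to 40000 CPM for R848 lay below the class folds. The part of Actb, or of what it moves with, in the Notch2 difference was not tested.

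**Figure D3:**
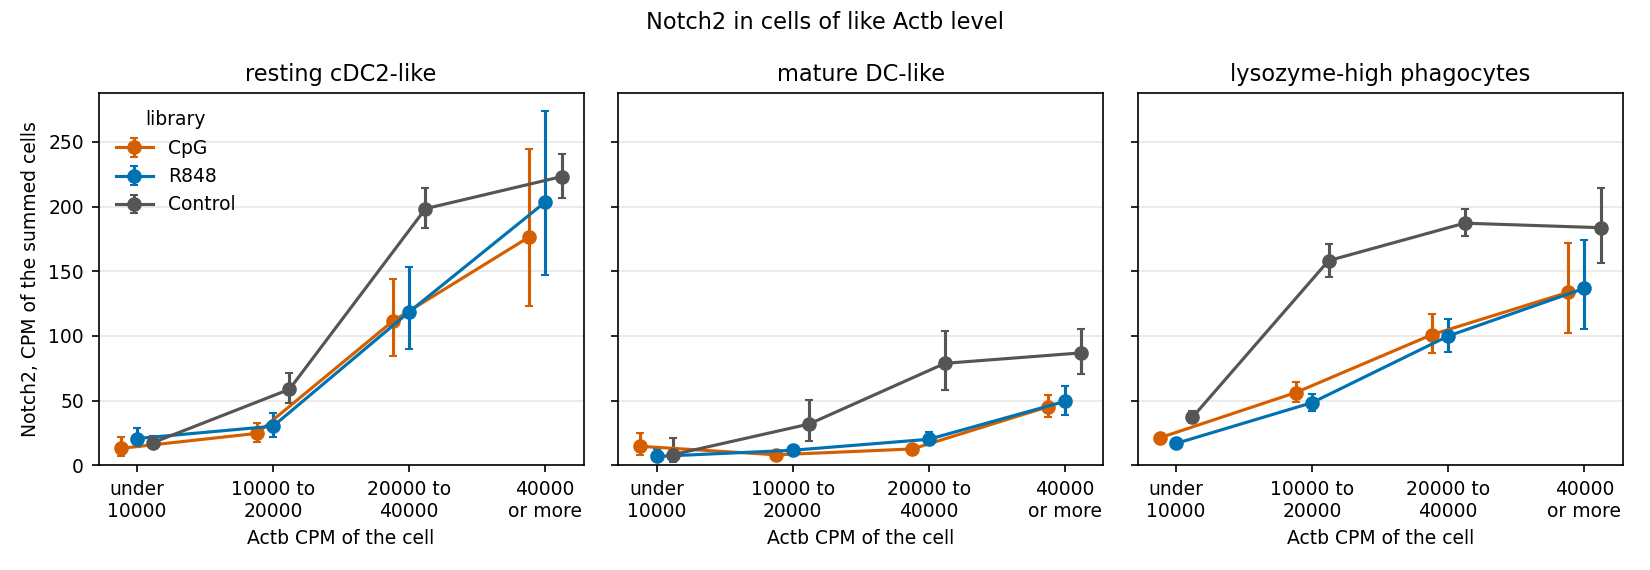
Notch2 in CPM of the summed cells (y axis) for cells in 4 ranges of their own Actb level (x axis, CPM), in the 3 classes, with lines for the CpG, R848 and Control libraries and bars for the 95% counting interval. In resting cDC2-like cells Notch2 is higher in each successive range (13.1, 24.7, 112 and 176 CPM in CpG), while CpG mature DC-like cells start at 14.7 CPM and dip to 8.12 CPM in the second range, and Control lies above both agonist libraries in the middle ranges.

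Notch1, the other receptor of the set, was scarce. In lysozyme-high phagocytes it stood at 3.58 CPM (2.70 to 4.65) in CpG and 3.96 CPM (3.18 to 4.87) in R848, against 3.48 CPM (2.68 to 4.45) in Control, levels whose intervals overlap. It reached 10.7 CPM in 1 R848 cluster of 111 lysozyme-high phagocytes led by Clec4d, Cd14 and Clec4e. Among resting cDC2-like cells it stood at 1.07, 2.03 and 0.977 CPM in CpG, R848 and Control. Mature DC-like cells had 0.572 CPM in CpG, 0.0779 CPM in R848 and 0 UMIs in Control, which allows up to 1.05 CPM. The free RNA level of Notch1 was between 0.0573 and 0.113 CPM.

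Rbpj, the protein through which all Notch receptors act on DNA, was measured in every class and not called with either agonist over Control. In resting cDC2-like cells it stood at 51.6 CPM (44.6 to 59.4) in CpG and 62.0 CPM (54.5 to 70.3) in R848, against 60.0 CPM (55.5 to 64.7) in Control. In lysozyme-high phagocytes it stood at 41.1 and 48.1 CPM, against 34.9 CPM in Control, folds of 1.18 (1.06 to 1.32) and 1.38 (1.25 to 1.52). In mature DC-like cells it stood at 63.2 CPM (59.5 to 67.0) in CpG and 37.4 CPM (34.1 to 40.9) in R848, against 67.3 CPM (58.1 to 77.5) in Control. R848 over Control was 0.556 there (0.469 to 0.660), a log2 ratio of -0.77 that passed the limit for a call at -1.45 under the stricter cell filter given below for Runx3 and at -1.11 without the largest cluster of the class in each library. R848 over CpG was 0.592 (0.531 to 0.659). Resting cDC1-like cells of Control had 89.9 CPM, 1.5 times the level of Control resting cDC2-like cells (1.29 to 1.73). The highest cluster held 89 mature DC-like cells of Control, at 110.1 CPM.

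Hes1, a repressor that Notch signalling switches on in many tissues, was close to absent. Among resting cDC2-like cells it stood at 0.269 CPM in CpG, at 0 UMIs in R848, which allows up to 0.760 CPM, and at 0.533 CPM in Control. In lysozyme-high phagocytes it stood at 0.384, 0.223 and 0.109 CPM. Mature DC-like cells had 0 UMIs in CpG, 1 UMI in R848 and 0 UMIs in Control, which allows up to 0.172 CPM in CpG and 1.05 CPM in Control. Resting cDC1-like cells of Control had 4.49 CPM (2.39 to 7.69), 8.44 times the level of Control resting cDC2-like cells (2.99 to 27.1), from 13 UMIs against 6 UMIs.

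Esam, an adhesion molecule of endothelial cells that also marks Notch2-dependent cDC2 of the spleen, was higher in mature DC-like than in resting cDC2-like cells of every library. Mature DC-like cells stood at 29.9 CPM in CpG, 54.0 CPM in R848 and 22.3 CPM in Control, and resting cDC2-like cells at 4.57, 12.9 and 4.89 CPM, so mature over resting was 6.55 (4.05 to 11.3), 4.18 (3.14 to 5.67) and 4.57 (3.13 to 6.67). Lysozyme-high phagocytes stood at 3.90, 3.03 and 2.94 CPM in CpG, R848 and Control. In each library the class with most Esam was the class with least Notch2. The share of cells with an Esam UMI, thinned to 3000 UMIs, was 8.47% of mature DC-like cells in CpG and 13.9% in R848, against 5.66% in Control, and between 0.850% and 1.13% of lysozyme-high phagocytes. Unthinned it was 14.4%, 23.2% and 9.90% of mature DC-like cells, at median depths of 5658, 5372 and 5162 UMIs, and at most 3.97% of lysozyme-high phagocytes, at a median depth of 13054 UMIs in that library.

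Among mature DC-like cells Esam rose with R848, to 54.0 CPM (50.1 to 58.2) against 22.3 CPM (17.2 to 28.5) in Control, a fold of 2.42 (1.87 to 3.18), and with CpG the fold was 1.34 (1.03 to 1.77). R848 over CpG was 1.81 (1.61 to 2.03). In resting cDC2-like cells R848 over Control was 2.64 (1.77 to 3.94), below the 20 CPM minimum and not called. The Control class was mostly 1 cluster of 371 cells at 16.03 CPM, and the other Control clusters of 89 and 55 cells stood at 29.6 and 64.6 CPM. Against these the R848 fold was 3.37, 1.83 and 0.835 (0.485 to 1.58), so the call rested on the cluster of 371 cells. The log2 ratio of 1.11 for R848 kept its call in 6 of 13 alternatives. It was not called at 0.10 when the libraries were clustered jointly, 0.44 without the largest cluster of the class in each library, 0.65 with a finer clustering, 0.81 with 20 CPM added, 0.86 with the stricter cell filter given below for Runx3, 0.89 as a mean over cells and 0.92 with cells named one by one. Endothelial markers summed to 63.3 CPM in CpG, 29.1 CPM in R848 and 16.7 CPM in Control mature DC-like cells, where 3, 5 and 5 of the 8 markers had 0 UMIs. The endothelial cadherin Cdh5 had 0 UMIs in the mature DC-like cells of each library. Other markers of that list were higher there with treatment. Pecam1 stood at 38.95 CPM in CpG and 23.2 CPM in R848, against 16.04 CPM in Control. Kdr stood at 22.8 CPM in CpG and 4.21 CPM in R848, against 0 UMIs in Control. Tie1 held 2, 0 and 1 UMIs in CpG, R848 and Control. Whether endothelial cells had a part in the Esam levels was not tested.

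Runx3 and Runx1 were distributed differently among the classes. Their distal promoters are shown because both genes are compared here, and because both windows carry the Runx motif in tandem. The windows, from RefSeq on GRCm38.p6, run from 250 bases before to 50 bases after the start. They are chr16:92826025-92826324 on the minus strand for Runx1 and chr4:135120395-135120694 on the plus strand for Runx3, printed 5′ to 3′ with ACCACA in capitals.
Runx1 distal promoter: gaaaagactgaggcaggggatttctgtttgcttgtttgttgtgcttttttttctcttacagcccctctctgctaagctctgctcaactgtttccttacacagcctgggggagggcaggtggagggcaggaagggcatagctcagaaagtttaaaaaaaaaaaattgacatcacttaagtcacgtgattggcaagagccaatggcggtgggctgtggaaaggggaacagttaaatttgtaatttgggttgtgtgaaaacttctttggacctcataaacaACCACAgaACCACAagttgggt
Runx3 distal promoter: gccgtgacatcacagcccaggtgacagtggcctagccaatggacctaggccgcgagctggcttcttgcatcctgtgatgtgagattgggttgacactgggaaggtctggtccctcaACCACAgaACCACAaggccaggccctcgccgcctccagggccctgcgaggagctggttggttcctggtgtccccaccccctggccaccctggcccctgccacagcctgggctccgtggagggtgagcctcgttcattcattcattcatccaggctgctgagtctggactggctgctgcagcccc
TGTGGT, searched on both strands and so also as ACCACA, stood in 16.8% of 32851 promoter windows of the same length, and 1.81% held 2 or more. The longest run shared by both windows is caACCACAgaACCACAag, of 18 bases, which 3 windows held: those of Runx1, Runx2 and Runx3. The second RefSeq window of Runx1 and of Runx3 held no copy, and neither did the windows of Notch1, Notch2 and Rbpj.

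Runx3 was abundant in resting cDC2-like cells and there close in the 3 libraries: 499 CPM (477 to 522) in CpG and 499 CPM (477 to 522) in R848, against 512 CPM (499 to 525) in Control, folds of 0.975 (0.925 to 1.03) and 0.975 (0.926 to 1.03). In lysozyme-high phagocytes it stood at 358 CPM in CpG and 259 CPM in R848, against 316 CPM in Control, folds of 1.13 (1.09 to 1.17) and 0.819 (0.790 to 0.850). In mature DC-like cells it stood at 22.8 CPM (20.6 to 25.1) in CpG and 29.9 CPM (27.0 to 33.1) in R848, against 164 CPM (149 to 179) in Control. Mature over resting cDC2-like cells was 0.0456 (0.0408 to 0.0508) in CpG, 0.0600 (0.0536 to 0.0669) in R848 and 0.320 (0.291 to 0.352) in Control. Control resting cDC1-like cells had 50.8 CPM, 0.0993 times the level of Control resting cDC2-like cells (0.0837 to 0.117). With each cell thinned to 3000 UMIs, 66.3% of resting cDC2-like cells in CpG and R848 and 67.7% in Control had a Runx3 UMI, against 6.04%, 7.58% and 28.3% of mature DC-like cells. Unthinned these were 92.0%, 81.9% and 81.8% of resting cDC2-like cells and 10.3%, 13.9% and 37.1% of mature DC-like cells, and Control resting cDC1-like cells, low in Runx3, had 13.3% thinned and 28.6% unthinned at a median depth of 6956 UMIs.

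In mature DC-like cells Runx3 differed most from 1 Control cluster. That cluster of 371 cells, with Tnfsf9, Kdm6b and Cd83 among its leading genes, had 218 CPM of Runx3 with 1459 CPM of Ccr7, the homing receptor that marks mature dendritic cells. Its mature DC markers averaged a log2 ratio of -0.11 to the mean of the libraries, below the naming limit of 0. It was named mature because that was the highest value of the sorted classes, the cDC2 list averaging -0.17. The other Control clusters, of 89 and 55 cells, had 19.7 and 49.7 CPM of Runx3 with 2554 and 2133 CPM of Ccr7. Xcr1 stood at 64.1 CPM in the cluster of 89 cells, 0 CPM in that of 55 and 4.37 CPM in that of 371. The part of cDC1-type cells in the Runx3 differences was not tested. Runx3 in CpG over each Control cluster in turn was 0.105 (0.0912 to 0.120), 1.15 (0.654 to 2.25) and 0.458 (0.246 to 0.962), and R848 over each was 0.138, 1.52 (0.859 to 2.96) and 0.602 (0.324 to 1.26). The free RNA level of Runx3 was 5.59 CPM in CpG, 5.35 CPM in R848 and 16.15 CPM in Control. The 19.7 CPM (10.2 to 34.4) of the cluster of 89 cells cannot be told from that Control level. The folds of 1.15 and 1.52 over that cluster are limited by this. Without the largest cluster of the class in each library the log2 ratio was -0.02 for CpG and -0.18 for R848, and with a finer clustering, which named 265 Control cells mature, -0.64 and -0.32, none called. Where cells were first held to at least 1000 genes and at most 5% mitochondrial UMIs, 69 Control cells were named mature and the log2 ratio was 0.14 for CpG and 0.68 for R848, the opposite sign to -2.60 and -2.27. In that setting 2095 Control cells were named resting cDC2-like, against 1769 in the main setting. The names of Control cells thus changed along with the filter. Within the Control class, Runx3 stood at 273 CPM (241 to 309), 153 CPM (129 to 180) and 75.7 CPM (59.8 to 94.4) in the tertiles of cells with least, middle and most Ccr7. In CpG it stood at 32.9, 18.2 and 16.8 CPM and in R848 at 26.9, 27.4 and 35.7 CPM, in tertiles whose Ccr7 ran from 1644 to 7447 CPM and from 1503 to 6273 CPM. Esam in the Control tertiles was 22.8, 14.2 and 29.1 CPM, with overlapping intervals.

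**Figure D4:**
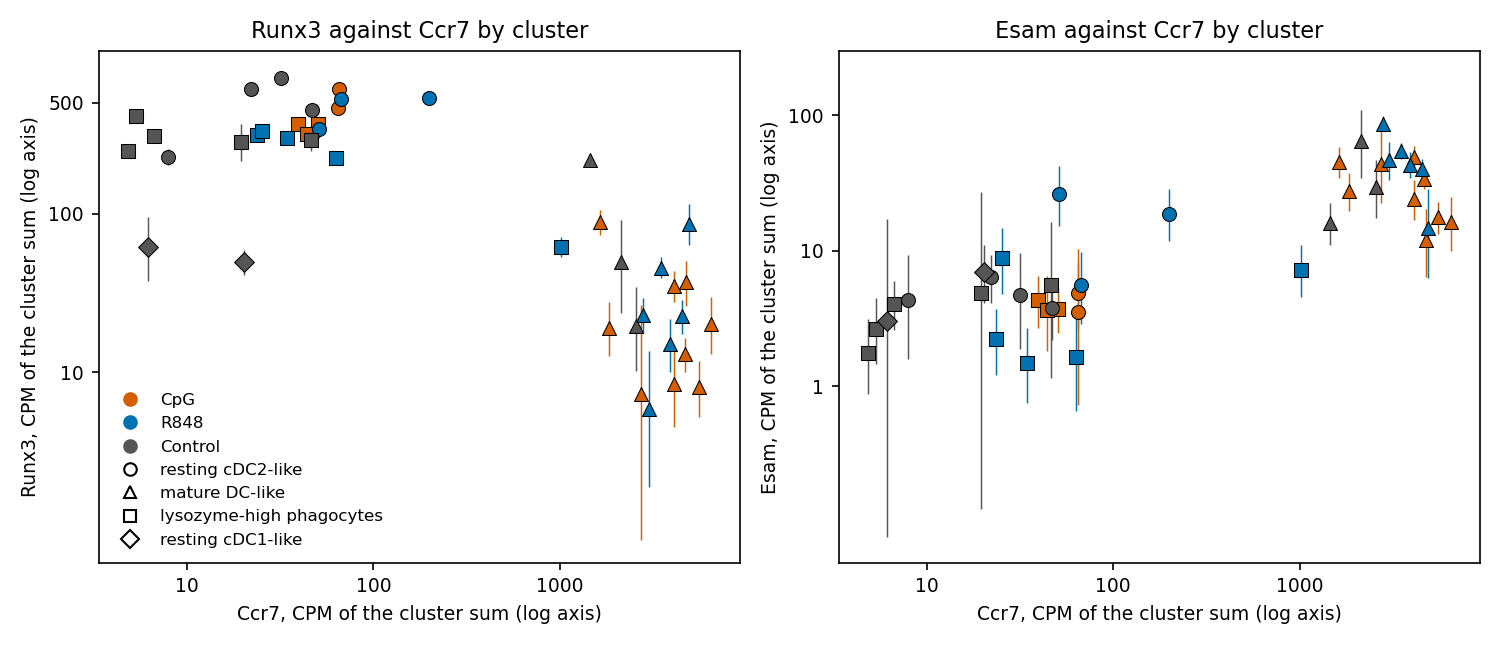
Runx3 (left) and Esam (right) against Ccr7, in CPM of the cluster sum on log axes, with 1 point for each cluster, colour for the library, shape for the class and bars for the 95% counting interval. Mature DC-like clusters, at the high end of Ccr7, lie between 5.88 and 88.6 CPM of Runx3 apart from 1 Control cluster at 218 CPM, and between 12.0 and 87.1 CPM of Esam.

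A lysozyme-high cluster of R848 also stood apart. It held 271 cells led by Il12b, had 1020 CPM of Ccr7 and 11488 CPM of Lyz1, and had 62.0 CPM of Runx3 and 19.6 CPM of Notch2, against 224 to 331 CPM of Runx3 and 36.1 to 39.5 CPM of Notch2 in the other 4 R848 lysozyme-high clusters. Its Rbpj was the highest of that class at 71.9 CPM. Its leading genes include Kdr, an endothelial marker.

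Within resting cDC2-like cells, Runx1 was concentrated in 1 kind of cell. In Control, a cluster of 202 resting cDC2-like cells led by the lectins Cd209a and Cd209b had 296 CPM of Runx1, where the other clusters of that class had 5.40 to 24.0 CPM. In R848, a cluster of 88 cells with 164 CPM of Cd209a had 228 CPM of Runx1, where the other clusters had 1.71 and 15.9 CPM. CpG had no cluster of this kind, and its highest Cd209a level in a resting cDC2-like cluster was 1.39 CPM. Over the class, Runx1 stood at 11.8 CPM (8.59 to 15.9) in CpG and 46.3 CPM (39.9 to 53.6) in R848, against 53.6 CPM (49.5 to 58.1) in Control, folds of 0.22 (0.159 to 0.299) and 0.864 (0.728 to 1.02). R848 over CpG was 3.92 (2.81 to 5.58).

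The cells themselves showed the same split. Runx1 in resting cDC2-like cells with a Cd209a UMI stood at 238 CPM (187 to 297) in 41 R848 cells and 180 CPM (164 to 198) in 360 Control cells, and in those without one at 29.5 CPM (24.2 to 35.6) and 19.6 CPM (16.8 to 22.7). In CpG 2 of 411 cells had a Cd209a UMI and the 409 without one stood at 11.9 CPM of Runx1 (8.64 to 15.9). With the Cd209a cluster left out, Runx1 in the class was 10.9 CPM (7.63 to 15.1) in R848 and 19.6 CPM (16.9 to 22.5) in Control, beside 11.8 CPM in CpG, which had no such cluster. Runx3 ran the other way: it was 227 CPM in the Cd209a cluster of Control, the lowest of that class, and 343 CPM in that of R848, also the lowest there. Notch2 in the Control Cd209a cluster was 120 CPM, within the range of its class.

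**Figure D5:**
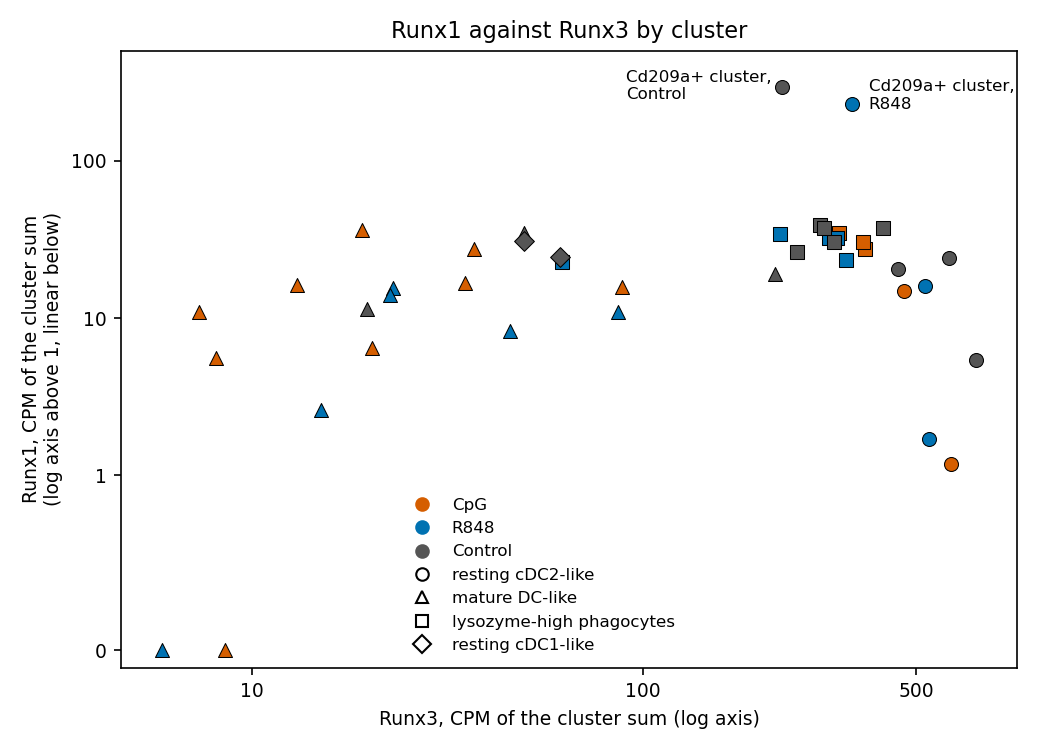
Runx1 (y axis, log above 1 and linear below) against Runx3 (x axis, log), both in CPM of the cluster sum, with 1 point for each cluster, colour for the library and shape for the class. The Cd209a clusters of Control and R848 stand alone at 296 and 228 CPM of Runx1, and mature DC-like clusters spread along low Runx3.

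In lysozyme-high phagocytes Runx1 stood at 29.9 CPM (27.2 to 32.7) in CpG and 30.6 CPM (28.4 to 33.0) in R848, against 31.2 CPM (28.7 to 33.9) in Control, folds of 0.956 (0.845 to 1.08) and 0.980 (0.876 to 1.10). Among mature DC-like cells it was below the minimum, at 14.5, 9.90 and 18.5 CPM in CpG, R848 and Control. Control resting cDC1-like cells had 30.1 CPM (24.1 to 37.1). A Control cluster of 48 cells with 737 CPM of Xcr1, too small for a name, had 102 CPM of Runx1 (73.9 to 136.5).

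Around the 7 genes, 92 other genes of Notch signalling, Runx partners and dendritic cell transcription factors were read as 11 lists. The shares of all measured genes called in mature DC-like cells, where most calls below were made, were 6.94% lower and 9.74% higher with CpG and 9.25% lower and 8.21% higher with R848, and those in the other classes are given above. Of the 5 Notch ligands, none was measured in resting cDC2-like cells or lysozyme-high phagocytes, and 2 were in mature DC-like cells. Dll4, a Delta-type ligand, stood there at 113 CPM in CpG and 12.1 CPM in R848, against 28.9 CPM in Control, so it rose 3.90-fold with CpG (3.13 to 4.92), and the R848 fold of 0.417 (0.318 to 0.552) was not called. Its log2 ratio of -0.99 for R848 turned to 1.37 under the stricter cell filter and to 0.05 without the largest cluster of the class in each library. It was below 0 in 11 of 13 alternatives, down to -1.60, and stayed uncalled in 7 of the 13. Its highest clusters were 1 of 187 CpG cells led by Il12b, at 356 CPM, 1 of 796 CpG cells led by Tnfrsf9, at 226 CPM, and 1 of 103 R848 cells with 2450 CPM of Il12b, at 163 CPM. Jag1, a Jagged-type ligand, fell to 8.18 CPM in R848, against 22.3 CPM in Control, with 13.9 CPM in CpG, a call lost with 20 CPM added. Neither Notch3 nor Notch4 was measured in any class.

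The machinery that prepares, cuts and reads the receptor moved less. Of 8 genes for cleavage by ADAM proteases and gamma-secretase, 4 to 7 were measured and 1 was called: Psen2, a catalytic part of gamma-secretase, rose in R848 lysozyme-high phagocytes to 80.8 CPM against 37.2 CPM in Control, a fold of 2.17 (1.99 to 2.38), a call lost with 20 CPM added, with median-of-ratios scaling and without the largest cluster of the class in each library. Their median log2 ratios lay between -0.02 and 0.20, where the medians of all measured genes lay between -0.04 and 0.19. Of 6 genes for receptor maturation, 2 or 3 were measured, and Poglut1, which adds glucose to Notch, rose in CpG mature DC-like cells to 221 CPM against 77.4 CPM in Control, a call lost under the stricter cell filter, the finer clustering and without the largest clusters. Of the 8 nuclear co-activators 3 were measured, and of the 12 co-repressors 6 to 8, with none called in any comparison and median log2 ratios of 0.15 to 0.43 and of -0.28 to 0.19. Of 12 negative regulators 4 to 6 were measured, and Dtx3l, a ubiquitin ligase of the Deltex family, rose in mature DC-like cells to 66.1 CPM in CpG and 62.0 CPM in R848, against 26.8 CPM in Control, calls lost with 20 CPM added and with joint clustering, and for R848 also without the largest clusters. Of 7 further Hes and Hey type genes 1 or 2 were measured, and none was called.

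Of 8 other genes known as Notch targets in some tissues, 4 were measured in each class. Among resting cDC2-like cells Cdkn1a, a cell cycle inhibitor, rose to 51.3 CPM in CpG and 119 CPM in R848, against 21.1 CPM in Control. The CpG call held in 6 of 13 alternatives, and its log2 ratio of 1.11 turned to -0.20 without the largest cluster of the class in each library. It was also not called with 20 CPM added, median-of-ratios scaling, the stricter cell filter, the finer clustering, joint clustering or a mean over cells. Ccnd1, a cyclin, rose there to 569 CPM in R848, with 397 CPM in CpG, against 239 CPM in Control. In mature DC-like cells Ccnd1 fell to 42.6 CPM in CpG and 71.0 CPM in R848, against 174 CPM in Control. Under the stricter cell filter, with 69 Control cells, its log2 ratios of -1.91 and -1.24 turned to 0.77 and 1.62, and the call was also lost for CpG without the largest clusters and for R848 with joint clustering. Cdkn1a fell to 132 CPM in CpG, with 279 CPM in R848, against 310.3 CPM in Control, a call lost as a mean over cells. Il2ra, the alpha chain of the interleukin-2 receptor, rose there to 78.9 CPM in CpG and 28.4 CPM in R848, against 5.93 CPM in Control, the R848 call being lost with 20 CPM added. The list held calls in both directions in mature DC-like cells: 1 higher and 2 lower with CpG, and 1 higher and 1 lower with R848. None was called in lysozyme-high phagocytes.

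Of the 5 Runx partners and relatives 2 were measured in each class. Cbfb, the shared partner of Runx proteins, fell in mature DC-like cells to 7.15 CPM in CpG, against 28.9 CPM in Control, a call lost with 20 CPM added. With R848 it stood at 12.0 CPM, a log2 ratio of -0.997 just short of a call. That ratio was below 0 in all 13 alternatives and stayed uncalled in 6. Of 20 dendritic cell transcription factors, 16 were measured in resting cDC2-like cells, 12 in mature DC-like cells and 11 in lysozyme-high phagocytes. In resting cDC2-like cells 1 was called, Mef2c, at 9.40 CPM in CpG and 9.12 CPM in R848, against 28.2 CPM in Control, calls lost with 20 CPM added and without the largest clusters. Markers of B lineage cells, which also express Mef2c, summed to 16.7, 25.3 and 22.8 CPM there, and 1 or 2 of the 8 reached 5 CPM. Among mature DC-like cells Stat3 rose to 378 CPM in CpG and 285 CPM in R848, against 136 CPM in Control, the R848 call being lost with 20 CPM added, with the finer clustering and without the largest clusters. Zeb2 and Ikzf1 fell there with R848, to 58.8 CPM against 143 CPM in Control and to 10.6 CPM against 36.9 CPM in Control, and in CpG they stood at 147 and 16.3 CPM. The CpG log2 ratio of Ikzf1, -0.98, was below 0 in all 13 alternatives and stayed uncalled in 8. The log2 ratio of Zeb2 for R848, -1.21, turned to 2.38 under the stricter cell filter and was not called with the finer clustering or joint clustering, and the call of Ikzf1 was lost with 20 CPM added, the stricter filter and the finer clustering. The gene called lower with CpG was Ahr, the aryl hydrocarbon receptor, at 12.2 CPM in CpG and 16.9 CPM in R848, against 32.4 CPM in Control, named after its values were seen. Over the 7 genes themselves the median log2 ratio of the 4 measured was -0.87 for CpG and -0.11 for R848 in resting cDC2-like cells, -0.87 and -1.15 in mature DC-like cells, and 0.06 and -0.15 in lysozyme-high phagocytes, where the medians of all measured genes were 0.17 and 0.19, 0.09 and -0.04, and 0.05 and 0.11.

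Likeness of pattern was measured by Pearson's r of log2(CPM + 5) over the 10 class-by-library sums, among genes of at least 20 CPM in 1 of them. These points share libraries, and classes of 1 library share depth and free RNA, so r is a description. The genes most like Notch2 were Ogt (r = 0.97), D17H6S53E (0.96) and Iqsec1 (0.96). Those most like Runx3 were Fam49b (0.99), 5031439G07Rik (0.98) and Rasal3 (0.98), and those most like Esam were Cdc42ep3 (0.98), Tmem150c (0.98) and Akap2 (0.98). For Runx1 they were Mbd3 (0.89), Tssc4 (0.85) and Khsrp (0.85), and for Rbpj Mpc2 (0.90), Taf1d (0.90) and Sec61g (0.88). Notch1 and Hes1 were below 20 CPM in every sum. Ogt, an enzyme that adds sugar to nuclear and cytosolic proteins, spanned a narrower range than Notch2: 79.3 CPM in CpG and 81.8 CPM in R848, against 101 CPM in Control resting cDC2-like cells, and 64.1 and 63.2 CPM, against 85.1 CPM in Control mature DC-like cells.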

How the data were processed

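UMI counts per gene and cell barcode were used as the authors deposited them, raw and in 1 matrix per library. Reads were aligned to mm10 and counted with Cell Ranger 2.0.0, per the submitters' processing notes. Cells with at least 500 genes and at most 10% mitochondrial UMIs were kept, the highest-scoring simulated-doublet neighbours were removed (0.8% per 1000 cells), and each library was clustered alone (2000 variable genes, 30 components, 15 neighbours, Leiden resolution 1). Clusters were named from 15 marker lists. The naming limits, including at least 5000 CPM of Lyz1 for lysozyme-high clusters, were set after the data were seen. UMIs were summed per class, with exact Poisson intervals for levels and exact conditional binomial intervals for folds. The rule for calls was tried on simulated data, and no error rate from that trial is given here. Free RNA was estimated from C1qa, C1qb and C1qc in mature DC-like cells, as 2.61% of UMIs in CpG, 2.51% in R848 and 4.62% in Control.

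The 7 genes and the lists were chosen with earlier results of these data known. Named list genes are those called, at most 3 per list and class, largest first. The comparisons by Control cluster, Actb, Ccr7 and Cd209a were added after the data were seen. Python 3.11.15, numpy 2.4.6, scipy 1.17.1, scikit-learn 1.9.0, pandas 2.3.3, igraph 0.11.9 and leidenalg 0.10.2 were used.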

Additional observations from a re-analysis of the deposited data

Results flagged for a closer look

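Each value here is a log2 ratio over Control, with 5 CPM added, of a gene called in 1 class or agonist that had the opposite sign in another. Some genes whose opposite value was near 0 are not listed below. With R848, Ikzf1 and Jag1 were called at -1.43 and -1.05 in mature DC-like cells. They stood at 0.05 and 0.03 in lysozyme-high phagocytes. With 1 library per group the differences between classes and between agonists were not tested. Runx3 stood at -2.60 in mature DC-like cells and 0.18 in lysozyme-high phagocytes with CpG. Ccnd1 stood at 0.72 in resting cDC2-like cells, -1.91 in mature DC-like cells and 0.81 in lysozyme-high phagocytes with CpG, and at 1.23, -1.24 and 0.19 in the same classes with R848. Cdkn1a stood at 1.11, -1.20 and 0.79 in these classes with CpG, and at 2.25 in resting cDC2-like and -0.15 in mature DC-like cells with R848. Zeb2 stood at -1.21 in mature DC-like cells and 0.23 in lysozyme-high phagocytes with R848. With cells of at least 1000 genes and at most 5% mitochondrial UMIs, Runx3, Ccnd1 and Zeb2 in mature DC-like cells turned positive. Dll4, the Notch ligand, went opposite ways in mature DC-like cells with the agonists, at 1.80 for CpG and -0.99 for R848. The R848 value was not called. It turned to 1.37 under that filter and to 0.05 without the largest cluster of the class in each library. It was below 0 in 11 of 13 alternatives and stayed uncalled in 7 of the 13.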

How the results depend on the processing

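Over 13 alternatives per ratio (12 planned ones and 1 added after the data were seen), 1370 log2 ratios moved by no more than their counting error or had none to set, 184 moved by more, and 6 called ones reversed. Notch2 was lower in every class under every alternative, from -1.71 to -0.73 (CpG) and -1.57 to -0.58 (R848) in resting cDC2-like cells. Without the largest cluster of each class in each library, the genes called were 1 against 2 in resting cDC2-like cells with CpG and 1 against 2 in mature DC-like cells with CpG, and Cdkn1a with CpG in resting cDC2-like cells reversed to -0.20. In the same setting the 1 gene called in resting cDC2-like cells with R848 was Esam, at 1.32, in place of Notch2. Clustering at resolution 2 gave 1 against 2 in mature DC-like cells with CpG and 1 against 3 with R848. At least 1000 genes and at most 5% mitochondrial UMIs gave 1 against 2 with CpG there and reversed Runx3 (0.14 for CpG, 0.68 for R848), Ccnd1 (0.77 and 1.62) and Zeb2 with R848 (2.38), over 69 Control cells against 515. Control resting cDC2-like cells then numbered 2095 against 1769. The cause of these reversals was not tested. Median-of-ratios scaling moved the median of all genes by -0.15 and -0.17 in resting cDC2-like cells. No paired analysis was possible because each group had 1 library. With 1 library per group no spread between mice could be had, and Hes1 and Notch1 were limited by their few UMIs.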

Other observations

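Esam was highest in cells that were in no named class. A Control cluster of 32 cells with Nccrp1 and Col17a1 among its leading genes had 149 CPM of Esam (111 to 197) and 660 CPM of Runx3 (576 to 753), with 98.6 CPM of Notch2. An R848 cluster of 14 cells, whose leading genes also include Col17a1 and Nccrp1 and in addition Aire, had 99.4 CPM of Esam (51.4 to 174) and 91.1 CPM of Runx3 (45.5 to 163), with 16.6 CPM of Notch2. Both were under the 50 cells needed for a name.

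Hes1 was highest in an unnamed CpG cluster of 44 cells, at 19.9 CPM (8.01 to 41.0) from 7 UMIs. That cluster was led by Jchain and Mzb1 of the plasma cell list and Cd79a of the B lineage list, so its cells resembled B lineage cells rather than phagocytes. Notch2 in proliferating cells stood at 34.6 CPM in CpG and 26.4 CPM in R848, against 131 CPM in Control. The libraries differed in the kinds of cell in this class. In CpG 142 of 202 cells were in a cluster with 2087 CPM of Ccr7. The R848 clusters had 10906 and 8046 CPM of Lyz1, and the Control clusters 468 CPM (196 cells) and 16479 CPM (138 cells). In the Lyz1-high clusters Notch2 stood at 48.6 CPM in CpG, 25.0 and 30.6 CPM in R848 and 132.5 CPM in Control.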
